A study of Mus musculus with 20 samples.

Results

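The effect of the NCoR1-KO genotype, made to remove NCoR1 from neurons, was compared between hippocampus and amygdala. For each gene, the difference between NCoR1-KO and control in amygdala was subtracted from the same difference in hippocampus, on the log2(TPM + 1) scale. TPM, the unit of the values, corrects read numbers for the length of the transcript and sets every library to the same total. The 2 tissue tables were joined by gene symbol, and a gene was tested when it reached 1 TPM in at least 3 libraries of each tissue. This gave 14210 of 23412 genes. The filter did not use the genotype labels, but a gene could pass it through the libraries of 1 genotype alone. A difference above 0 means that NCoR1-KO lay higher against control in hippocampus than in amygdala, and a difference below 0 the reverse.

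The mice were at postnatal day 21. NCoR1-KO animals combined floxed NCoR1 with Snap25-IRES2-cre, a knock-in that drives Cre recombinase in neurons, so that glia and vessels in the same piece of tissue should keep the gene. Each tissue gave 4 control and 3 NCoR1-KO libraries. The study also made 3 SMRT-KO libraries per tissue, with the same driver and floxed SMRT. They entered the estimate of the spread, the filter on low genes and the tissue means behind the scores below, but not the estimated differences. Whether controls carried the driver or a floxed allele is not stated in the labels. Snap25, at the locus of the driver, was lower in NCoR1-KO in both tissues. Effects of losing NCoR1, of the driver and of lower Snap25 therefore cannot be told apart here. Nor do the labels state that the libraries came from separate animals. The p-values below therefore rest on a spread between libraries that may be partly technical.

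NCoR1 is a corepressor. It docks on nuclear receptors such as the thyroid hormone receptors, the retinoic acid receptors and the REV-ERB receptors of the circadian clock, and it activates histone deacetylase 3, which keeps the chromatin of their target genes closed. Neurons of both tissues express it. The hippocampus is dominated by excitatory granule and pyramidal cells, while the amygdala joins cortex-like excitatory nuclei to striatum-like nuclei rich in GABA neurons and neuropeptides.

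Several libraries stood apart. The labelled tissues differed in known markers. Prox1, the dentate granule cell factor, had a mean of 66.5 TPM in hippocampus controls and 8.38 TPM in amygdala controls, and Neurod6, a factor of pyramidal cells, 363 and 47.4 TPM. Hippocampus control 2 had a striatum marker score of 1.10 and an amygdala nuclei score of 0.72, where a score is the median log2 deviation of a list's genes from their mean over the tissue. Hippocampus NCoR1-KO 3 had a choroid plexus score of 2.65. Hippocampus SMRT-KO 2, which entered the spread, had scores of 2.17 for thalamus, 1.44 for hypothalamus and 1.69 for choroid plexus markers. Alb, which encodes serum albumin and is made in liver, was at 14.1, 17.7 and 158 TPM in hippocampus control 2, NCoR1-KO 2 and NCoR1-KO 3, and at 100.3, 99.0 and 246 TPM in the amygdala libraries of the same names. In the other 14 libraries of both tissues Alb did not exceed 0.17 TPM. A total of 12 genes, Alb and the apolipoprotein gene Apoa1 among them, reached 1 TPM in all 6 of these libraries and stayed under 1 TPM in all others. These genes were singled out after their values were seen. The source of this RNA was not tested. The counts of genes that passed for the difference between tissues and in amygdala are given below with and without these libraries. Counts of genes whose libraries did not overlap include them, as do the list counts.

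Ncor1 itself was lower in NCoR1-KO in both tissues, to 42.1% of control in hippocampus and 32.5% in amygdala, and the 2 effects did not differ beyond the spread. Its gene lies on the minus strand of chromosome 11 at 62316426 to 62458541 (GRCm38). Hippocampus controls were at 81.6, 119, 129 and 137 TPM, NCoR1-KO at 41.9, 44.5 and 61.1 TPM and SMRT-KO at 143, 108 and 101 TPM. Amygdala controls were at 71.3, 117, 119 and 127 TPM, NCoR1-KO at 32.1, 34.6 and 39.0 TPM and SMRT-KO at 124, 114 and 118 TPM. The log2 differences from control were -1.22 ± 0.20 (SE) in hippocampus and -1.57 ± 0.20 in amygdala. All 3 NCoR1-KO libraries lay below all 4 controls in each tissue, and control 1 was the lowest control in both. The difference between tissues was 0.34 ± 0.28, with a 95% confidence interval from -0.24 to 0.93 (limma's unadjusted p = 0.234). Two-sided exact permutation of genotype labels within tissues gave p = 0.685 over 1225 arrangements. Its null is no effect in either tissue, and the effects present widen the shuffled differences. It therefore cannot decide whether the 2 effects are equal. Within each tissue, the exact permutation test gave p = 0.0286, the smallest that 35 arrangements allow. Since bulk tissue also holds cells that the driver does not reach, the remaining signal cannot be assigned to neurons or to other cells.

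Snap25, which encodes a membrane fusion protein of synapses and shares its locus with the Cre knock-in (chromosome 2, 136713453 to 136782428, plus strand), had nearly the same difference in both tissues. Hippocampus controls were at 2236, 2204, 2329 and 2249 TPM and NCoR1-KO at 1273, 1346 and 1257 TPM, while amygdala controls were at 1927, 2154, 1825 and 2228 TPM and NCoR1-KO at 1201, 1123 and 1228 TPM. The SMRT-KO libraries, which carry the same driver, also lay below all controls, at 1247, 1090 and 1699 TPM in hippocampus and 1053, 1207 and 1114 TPM in amygdala. In NCoR1-KO it was at 57.3% of control in hippocampus and 58.2% in amygdala, with log2 differences of -0.80 ± 0.11 and -0.78 ± 0.11. The difference between tissues was -0.03 ± 0.15, with an interval from -0.35 to 0.29 (limma's unadjusted p = 0.858). The two-sided exact permutation gave p = 0.900, with the same limit as for Ncor1.

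**Figure D1:**
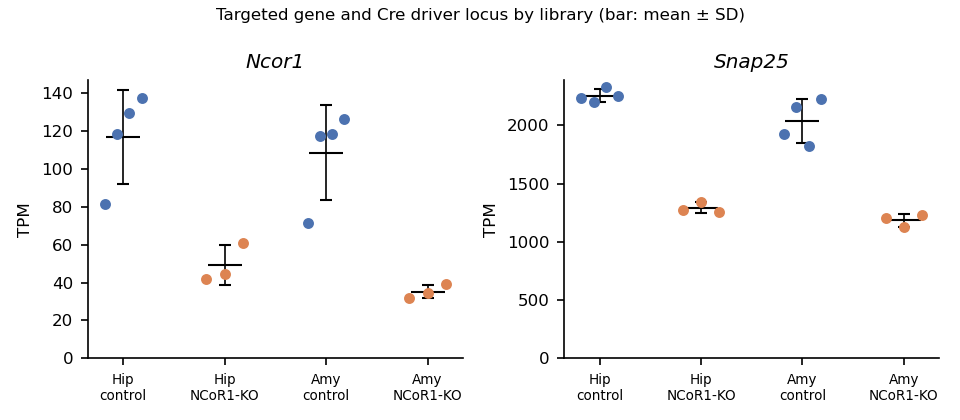
Level in TPM (vertical axes) of Ncor1 and of Snap25 in each control and NCoR1-KO library of hippocampus (Hip) and amygdala (Amy). Points are libraries, bars are the mean and the whiskers 1 SD. In both genes and both tissues, every NCoR1-KO library lies below every control.

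Across the genome, the difference between tissues passed in 0 of 14210 genes (0%). The smallest adjusted p of limma was 0.998. At an unadjusted p under 0.05 there were 522 genes (3.67%), 243 of them above 0 (1.71%) and 279 below (1.96%), and 40 of the 522 were predicted genes. With the spread taken from the 14 control and NCoR1-KO libraries only, 0 genes passed and 771 of 14210 had an unadjusted p under 0.05. For most genes the intervals limited only large differences, on a scale that understates the change of low genes. At the median, the 95% interval reached 0.30 to each side of its estimate. The SD of the differences over genes was 0.21, so differences of that size were mostly not resolved. The 95% interval lay within 0.5 of 0 for 8813 genes (62.0%) and within 1 of 0 for 13060 (91.9%), and the median standard error was 0.14. Estimates beyond 1 on either side were found for 52 genes, 19 above and 33 below 0. The median difference was 0.03, and 8393 genes (59.1%) lay above 0. With each library centred on its median the share above 0 was 48.8%, and with quantile normalization 51.3%. Without the 6 libraries that held Alb, 0 genes passed and 203 had an unadjusted p under 0.05. That fit leaves 1 NCoR1-KO library per tissue, which is assumed to vary like the other groups.

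Fitted within each tissue, 0 of 14501 genes passed in hippocampus (0%, with 658 genes or 4.54% at an unadjusted p under 0.05), and 60 of 14606 in amygdala (0.411%, with 1915 genes or 13.1% unadjusted). A call in amygdala and none in hippocampus is not a difference between them, and the test of the difference called 0 of the 60. In the joint fit of both tissues 1 gene passed in hippocampus (Snap25, 0.00704%) and 2 in amygdala (Ncor1 and Snap25, 0.0141%). All NCoR1-KO libraries lay on one side of all controls for 1166 genes in hippocampus (8.21%), of which 564 were lower (3.97%) and 602 higher (4.24%). In amygdala this held for 1738 genes (12.2%), 1212 lower (8.53%) and 526 higher (3.70%). Across genes, which are not independent replicates, the effects of both tissues had a Pearson r of 0.38 and a Spearman rho of 0.25. They had the same sign in 8281 genes (58.3%). The independence of the 2 tissues is not established, as given below for same-numbered libraries.

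**Figure D2:**
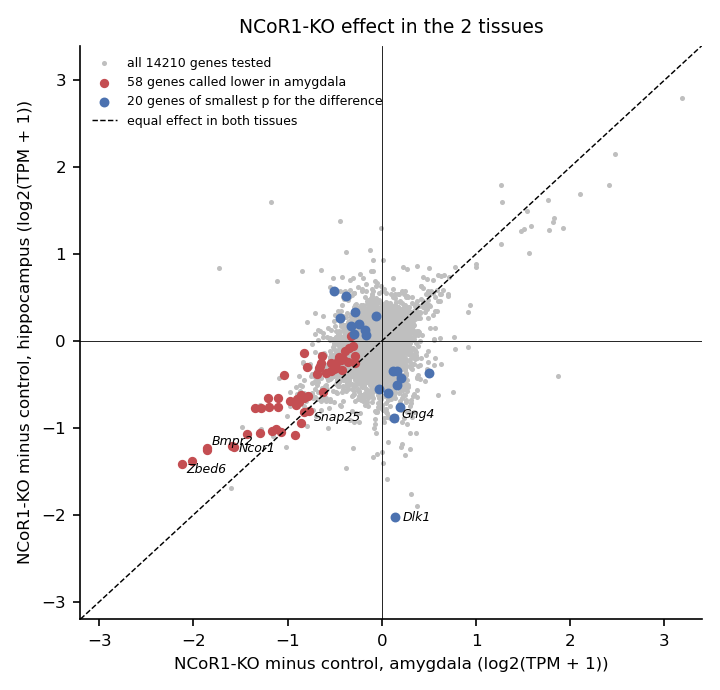
NCoR1-KO minus control in amygdala (horizontal axis) against hippocampus (vertical axis), both in log2(TPM + 1), with 1 point per gene. Grey points are all 14210 genes, red points the 58 that fell in amygdala, blue points the 20 of smallest unadjusted p for the difference, and the dashed line marks equal effects. Of the red points 57 lie below 0 on the vertical axis.

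The 10 genes nearest to a lower effect in hippocampus than in amygdala had higher mean levels in amygdala controls than in hippocampus controls, 10 of 10, against 56.0% of all tested genes. These control values also enter the difference that chose the genes, so the count is a description without a test. None of the 10 passed (limma's adjusted p = 0.998 for each). Hcrtr1, the receptor that binds orexin A (minus strand of chromosome 4, 130130217 to 130139359), was at 2.97, 3.50, 3.35 and 2.85 TPM in hippocampus controls and 2.07, 2.56 and 2.08 TPM in hippocampus NCoR1-KO. In amygdala its controls were at 4.28, 4.28, 4.87 and 3.55 TPM and NCoR1-KO at 5.80, 8.04 and 5.52 TPM. The groups overlapped in neither tissue, and the order of the groups was opposite. The difference between tissues was -0.86 ± 0.18, and it lay between -1.07 and -0.48 over the alternatives tried.

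Gng4 encodes a gamma subunit of heterotrimeric G proteins (plus strand of chromosome 13, 13784059 to 13827896). Its hippocampus controls were at 33.8, 66.9, 41.7 and 52.5 TPM and NCoR1-KO at 23.5, 27.5 and 24.4 TPM. Amygdala controls were at 133, 130, 134 and 123 TPM and NCoR1-KO at 144, 138 and 144 TPM. The level in hippocampus NCoR1-KO was 51.6% of control and in amygdala 109%, with no overlap of the libraries in either tissue and a difference of -1.01 ± 0.22. Doc2a, a calcium sensor of transmitter release, was at 11.7, 19.5, 11.4 and 9.61 TPM in hippocampus controls and 7.47, 7.24 and 6.49 TPM in NCoR1-KO. In amygdala it was at 49.5, 54.1, 41.5 and 49.2 TPM against 56.0, 51.3 and 59.2 TPM, where the groups overlapped. Its difference was -0.95 ± 0.23.

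Dlk1, a membrane protein of the Notch ligand family, had the largest estimate among these 10 genes, -2.16 ± 0.58. Hippocampus controls were at 2.40, 14.3, 4.46 and 8.38 TPM and NCoR1-KO at 0.38, 2.09 and 0.30 TPM. Amygdala controls (12.5 to 30.3 TPM) and NCoR1-KO (17.9 to 30.6 TPM) overlapped widely. Dlk1, Gng4 and Doc2a were each highest, among hippocampus controls, in control 2, the library with the high amygdala nuclei and striatum scores. Without control 2 their differences were -1.79, -0.85 and -0.75. The other genes of this side were Lzts1, a postsynaptic protein (-0.67 ± 0.17), Agbl4, an enzyme that shortens glutamate chains on tubulin (-0.67 ± 0.19), the cadherin Cdh18 (-0.63 ± 0.17), S100a10, a partner of annexin A2 (-0.52 ± 0.14), Bex1 (-0.50 ± 0.13) and Tmem121 (-0.46 ± 0.12).

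On the other side stood the 10 genes nearest to a higher effect in hippocampus than in amygdala. None passed (limma's adjusted p = 0.998 for each). Klf3, a zinc finger repressor (plus strand of chromosome 5, 64803388 to 64832901), was at 34.1, 34.5, 33.7 and 40.2 TPM in hippocampus controls and 38.5, 40.1 and 41.9 TPM in NCoR1-KO. Amygdala controls were at 25.0, 20.4, 23.6 and 22.7 TPM and NCoR1-KO at 16.1, 19.2 and 19.2 TPM. The groups overlapped in hippocampus and not in amygdala, and the difference was 0.49 ± 0.12.

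Lum encodes lumican, a collagen-binding proteoglycan of fibroblasts (plus strand of chromosome 10, 97565128 to 97572703). Hippocampus controls were at 3.15, 3.49, 4.43 and 4.82 TPM and NCoR1-KO at 4.91, 6.29 and 7.14 TPM, while amygdala controls were at 3.42, 3.0, 3.2 and 4.95 TPM and NCoR1-KO at 2.54, 2.8 and 2.25 TPM. The libraries did not overlap in either tissue and the order was opposite, with a difference of 0.90 ± 0.27. Batf3, a transcription factor of the AP-1 family, differed by 1.08 ± 0.32 at low levels of 0.49 to 2.84 TPM. The others were Cerkl, a relative of ceramide kinase (0.71 ± 0.20), Srgn, a proteoglycan of secretory granules (0.62 ± 0.19), the telomere protein Pot1b (0.44 ± 0.14), Tmem173, the cytosolic DNA response adaptor STING (0.38 ± 0.11), the endoplasmic reticulum cation channel Tmem38b (0.36 ± 0.11), the ubiquitin ligase subunit Anapc16 (0.30 ± 0.08) and the poly(A)-binding protein Pabpc1 (0.24 ± 0.07).

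**Figure D3:**
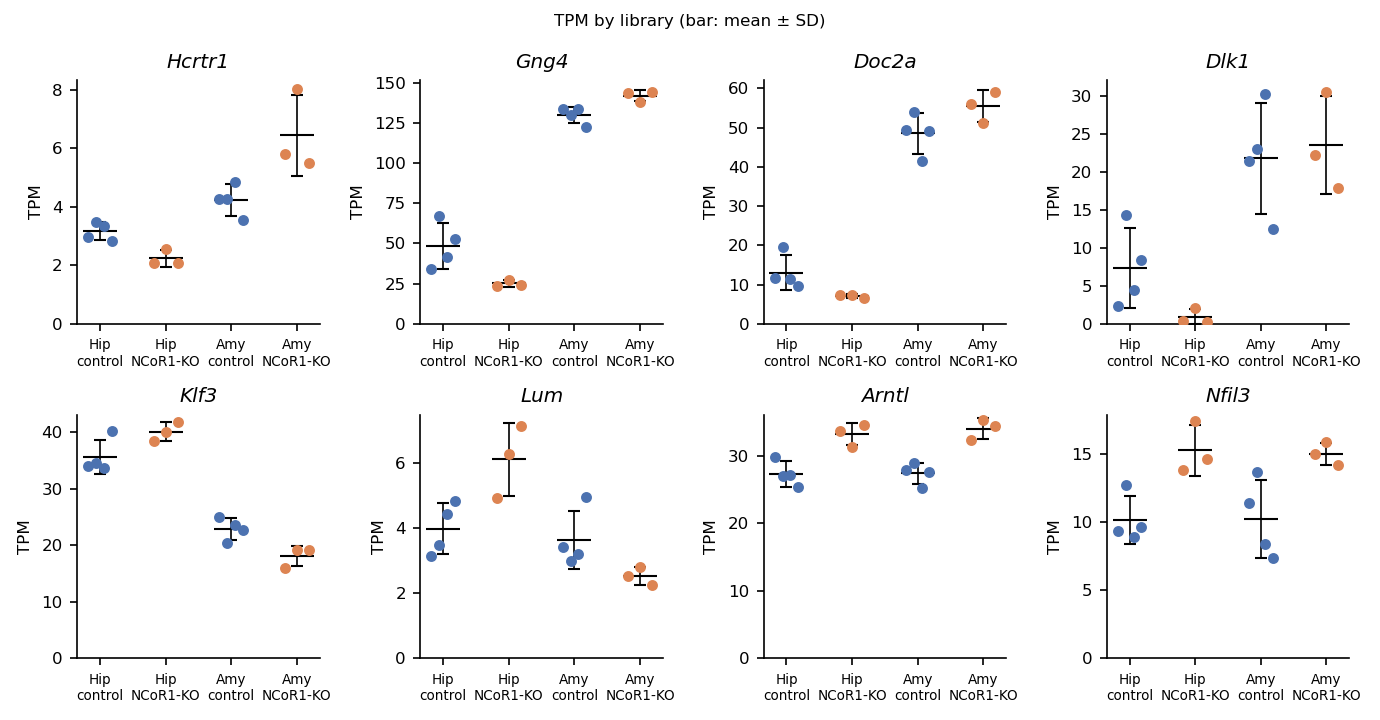
Level in TPM (vertical axes, each from 0) of 8 genes in control and NCoR1-KO libraries of hippocampus (Hip) and amygdala (Amy). Points are libraries, bars are the mean and the whiskers 1 SD, cut off at 0 for Dlk1. Every NCoR1-KO library of Gng4 and Dlk1 lies below every hippocampus control and not so in amygdala, while Arntl and Nfil3 lie above control in both tissues. The test of the difference passed for none of the 8.

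Some genes had like differences in both tissues. NCoR1-KO and control libraries failed to overlap in both tissues and in the same direction for 134 genes (0.943%), 86 lower (0.605%) and 48 higher (0.338%). Same-numbered libraries of the tissues deviated together in 8 of 10 pairs, so the 2 tissues may not be independent in these counts. Among the 48, the largest difference shared by both tissues was that of 8430408G22Rik, matched by an older symbol to Depp1, a gene induced by FOXO transcription factors (plus strand of chromosome 6, 116650609 to 116652794). It was named after its values were seen. In hippocampus it was at 1.99, 4.32, 1.3 and 0.81 TPM in controls and 7.45, 7.93 and 7.60 TPM in NCoR1-KO, and in amygdala at 2.62, 4.51, 2.03 and 1.09 TPM against 6.5, 6.9 and 8.1 TPM. Control 2, which held Alb, was the highest control in both tissues. NCoR1-KO 1, where Alb did not exceed 0.09 TPM, was the lowest NCoR1-KO library and above all controls in both tissues. The log2 differences were 1.60 ± 0.31 and 1.28 ± 0.31, and they differed by 0.32 ± 0.43. The amygdala effect did not pass over all genes (limma's adjusted p = 0.0857).

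Arntl, the clock activator BMAL1 (plus strand of chromosome 7, 113207465 to 113314126), and Nfil3, a clock-controlled repressor (minus strand of chromosome 13, 52967209 to 52981073), were also higher in every NCoR1-KO library than in any control of their tissue. The REV-ERB receptors silence both genes through NCoR1 by binding an AGGTCA element that follows an AT-rich stretch, as textbook background. Their RefSeq promoter windows (GRCm38.p6, from 250 bases before to 50 after the start) were searched on both strands for TAGGTCA, a choice made after the values were seen. Both held it, and the 30 bases around it are shown because these are the only windows with the motif among the genes higher in both tissues, with the motif in capitals and in 5′ to 3′ orientation on the plus strand.
Arntl, chr7:113207530-113207559: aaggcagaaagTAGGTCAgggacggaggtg
Nfil3, chr13:52981033-52981062: gatgtgtgttagTAGGTCAgttccgagcgc

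The windows follow the RefSeq start of each gene, which differs from the GENCODE gene start given above. TAGGTCA was found in 2 of 36 windows of the genes that were higher in both tissues (5.56%) and 1 of 68 of those lower in both (1.47%). The 2 are Arntl and Nfil3, for which the motif was chosen, so their share is not a test. Among the 58 genes that fell in amygdala it was in 0 of 38 windows. It was in 226 of 10476 of all tested genes with a window (2.16%) and 856 of all 32851 windows (2.61%). The shorter AGGTCA, which every TAGGTCA contains, was in 7 of the 36 (19.4%), 10 of the 68 (14.7%), 3 of the 38 (7.89%) and 1538 of the 10476 (14.7%). These are matches of letters, not sites of binding.

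Arntl was at 29.8, 27.0, 27.1 and 25.3 TPM in hippocampus controls and 33.6, 31.4 and 34.5 TPM in NCoR1-KO, and at 27.8, 28.9, 25.2 and 27.6 TPM against 32.3, 35.4 and 34.4 TPM in amygdala. NCoR1-KO was at 122% of control in hippocampus and 124% in amygdala, and the effects differed by -0.03 ± 0.10 (interval -0.24 to 0.18). Nfil3 was at 9.31, 12.7, 8.88 and 9.66 TPM against 13.8, 17.4 and 14.6 TPM in hippocampus, and at 11.4, 13.7, 8.40 and 7.36 TPM against 15.0, 15.8 and 14.2 TPM in amygdala. Its effects were 0.55 in each tissue and differed by 0.01 ± 0.24 (interval -0.50 to 0.52). Neither gene passed over all genes in a tissue (limma's adjusted p = 0.0883 for Arntl and 0.201 for Nfil3 in amygdala).

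Among the 86 genes that were lower in both, Tcp11l1 was at 41.1% of control in hippocampus and 45.5% in amygdala, and Aox4, an aldehyde oxidase, at 29.6% and 33.5%. Tril, an accessory protein of Toll-like receptor 4, was at 84.7% and 80.3%. The differences between tissues of these 3 genes were -0.20 ± 0.37, 0.06 ± 0.41 and 0.07 ± 0.10.

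Opposite directions without overlap in either tissue were rarer, with 18 genes (0.127%). Of these 8 were lower in hippocampus and higher in amygdala (0.0563%) and 10 the reverse (0.0704%). Besides Hcrtr1, Lum, Srgn and Pot1b they included Radil, an effector of the GTPase Rap (80.5% of control in hippocampus and 114% in amygdala), and Dtd1, which clears D-amino acids from transfer RNA (91.3% and 108%). Gnai3, an inhibitory G protein subunit, was at 111% and 92.0%, and Dcxr, a carbonyl reductase, at 116% and 78.3%. No gene of this kind passed the test of the difference.

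Of the 60 genes that changed in amygdala, 58 fell (0.397%) and 2 rose (0.0137%). Their amygdala values chose them, so their difference between tissues is a description without a test. The hippocampus libraries did not enter the choice, but same-numbered libraries of the tissues deviated together in 8 of 10 pairs, so their independence is not established. In hippocampus, 57 of the 58 (98.3%) lay below control, against 7106 of all genes (50.01%), and Acap2 was the exception. The median effect of the 58 was -0.49 in hippocampus and -0.79 in amygdala, against 0.00 and -0.03 over all genes. In hippocampus, 6 of the 58 (10.3%) had NCoR1-KO libraries that all lay below control, against 3.97% of all genes. They were Ncor1, Snap25, Purb, Ccdc88a and 2 predicted genes. Ncor1 is the targeted gene and Snap25 shares its locus with the driver, so 2 of the 6 are tied to the design of the knockout. The tissue fits gave these genes a median standard error of 0.31 in hippocampus and 0.11 in amygdala, against 0.11 and 0.09 over all genes.

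Bmpr2, a receptor for bone morphogenetic proteins, shows the pattern. Amygdala controls were at 49.1, 46.8, 68.8 and 32.4 TPM and NCoR1-KO at 9.32, 13.9 and 14.6 TPM, well apart. Hippocampus controls were at 66.7, 40.7, 10.8 and 36.7 TPM and NCoR1-KO at 5.91, 20.4 and 17.8 TPM. Control 3 lay among the knockouts and the groups overlapped. Kcnma1, the large-conductance calcium-activated potassium channel, was at 66.9, 72.4, 90.0 and 61.8 TPM against 29.1, 33.5 and 37.0 TPM in amygdala, and at 86.2, 59.8, 29.9 and 48.9 TPM against 26.2, 39.5 and 34.5 TPM in hippocampus. There too hippocampus control 3 was the lowest control. Zbed6, a transposon-derived repressor, was at 18.9% of control in amygdala and 31.0% in hippocampus. Rora, a nuclear receptor that binds the same element as the REV-ERB receptors, was at 51.9% and 54.6%, the ubiquitin ligase Mib1 at 52.4% and 61.8%, and the potassium channel Kcnq3 at 49.4% and 58.3%.

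The difference between tissues lay above 0 for 55 of the 58 (94.8%), against 59.1% of all genes, with Snap25 and Ptprt among the exceptions. The choice of genes by low amygdala effects itself pushes this difference above 0. The count therefore does not show a weaker effect in hippocampus. The 2 genes that rose in amygdala were Snap47, a relative of Snap25 (0.21), and Ldb2, a cofactor of LIM domain factors (0.38). In hippocampus their effects were 0.06 and -0.29.

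Transcript length moved with this group. The 54 of the 58 with an annotated coding transcript had a median length of 10410 nt and a GC content of 43.3%, against 3228 nt and 50.3% over tested genes. The 344 tested genes with transcripts over 10000 nt had a median effect of -0.17 in hippocampus and -0.28 in amygdala, against 0.01 in each for 3208 genes under 2000 nt. The library values followed the same order. The median deviation of the 58 was 0.60, 0.41, -0.13 and 0.33 in hippocampus controls 1 to 4 and -0.52, 0.01 and -0.04 in NCoR1-KO 1 to 3. It was 0.43, -0.41 and -0.62 in hippocampus SMRT-KO 1 to 3, so SMRT-KO held both high and low libraries there. In amygdala it lay between 0.00 and 0.34 in controls, between -0.75 and -0.48 in NCoR1-KO and between 0.32 and 0.45 in SMRT-KO. With the trend of each library with length and GC removed, chosen after seeing the data, 22 genes passed in amygdala and the hippocampus median of the group was -0.25, with 51 of 54 below control. Any part of length-related RNA quality in these calls was not tested further.

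The amygdala count rested on single libraries. It was 0 without NCoR1-KO 2, 3 without control 1, 7 without NCoR1-KO 1, 10 to 25 without control 3, NCoR1-KO 3 or 1 of the 3 SMRT-KO libraries, 126 without control 2 and 89 without control 4. Without the 6 libraries that held Alb it was 0, and 57 of the 58 still lay below control in hippocampus (median -0.85). The hippocampus median was -0.26 without hippocampus NCoR1-KO 1 and -0.64 without hippocampus control 3.

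**Figure D4:**
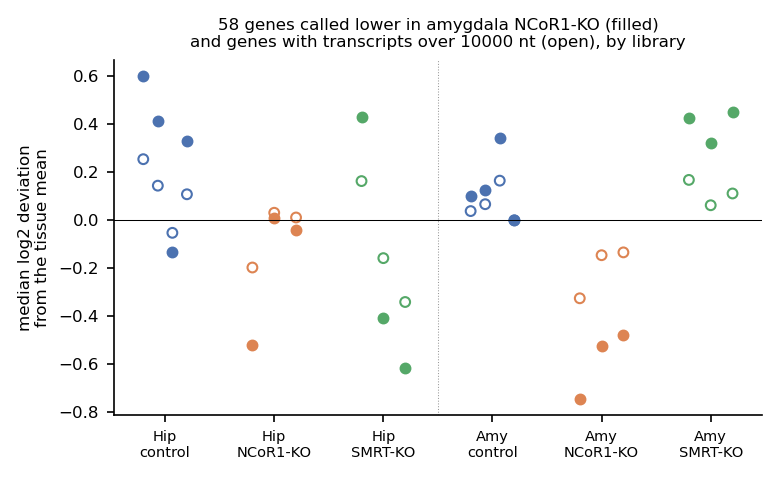
Median log2 deviation from the tissue mean (vertical axis) in each of the 20 libraries, by tissue and genotype, over the 58 genes that fell in amygdala NCoR1-KO (filled points) and over the 344 genes with transcripts longer than 10000 nt (open points). The 3 amygdala NCoR1-KO libraries lie lowest in amygdala, which for the filled points follows from how the genes were chosen. In hippocampus the filled points of SMRT-KO 2 and 3 (-0.41 and -0.62) lie on either side of NCoR1-KO 1 (-0.52). The filled points of the other hippocampus NCoR1-KO libraries are near 0.

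A total of 34 lists with 688 genes were then described by their counts and medians. Beside them stand the 59.1% of all genes above 0 and the median of 0.03 over all genes. Some genes belong to several lists, so the lists are not independent. In none of the lists did a gene pass the test of the difference. For list counts above or below control, the background is that of all 14210 genes. Of these, 3536 lay above control in both tissues, 3568 in hippocampus only, 2361 in amygdala only and 4745 in neither. The corepressor complex genes, partners of NCoR1, had a median difference of 0.05 with 13 of 20 above 0. The deacetylases Hdac1 and Hdac5 differed by 0.11 ± 0.09 and -0.15 ± 0.10. Nuclear receptors had 16 of 36 above 0 and a median of -0.02. The thyroid hormone receptor Thrb was at -0.18 ± 0.16, and Rxrg, a dimerization partner of such receptors, at -1.20 ± 0.50, which was -0.76 without hippocampus control 2.

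Among the lists of receptor target genes, thyroid hormone response genes had medians of 0.09 in hippocampus and -0.08 in amygdala and a median difference of 0.15, with 22 of 27 above 0. Slco1c1, the thyroxine transporter of the blood-brain barrier, differed by 0.52 ± 0.19, and Dio2, the astrocyte enzyme that makes active thyroid hormone, by 0.34 ± 0.16. Both are genes of non-neuronal cells, whose lists are given below. LXR and PPAR targets had 23 of 28 above 0 (median 0.16, and 0.07 without amygdala control 1), with Hadhb of fatty acid oxidation at 0.21 ± 0.09. Cholesterol synthesis genes had 17 of 22 above 0 (median 0.08), which was -0.04 without hippocampus control 2 and NCoR1-KO 3. In the retinoid pathway the median was 0.08 (8 of 14), and -0.05 without hippocampus NCoR1-KO 3. Cyp26b1, which degrades retinoic acid, was at 36.6, 40.0 and 40.4 TPM in amygdala NCoR1-KO, above its controls at 23.9, 26.8, 25.8 and 23.3 TPM, while the hippocampus groups overlapped, and its difference was -0.90 ± 0.49.

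Clock, immediate early and stress genes had differences in the same direction in both tissues. Of 16 clock genes, 12 lay above control in hippocampus and 13 in amygdala, with medians of 0.18 and 0.14 and a median difference of -0.01. Within this list Npas2, a partner of BMAL1, differed by -0.49 ± 0.17 and the period gene Per3 by 0.29 ± 0.14. Immediate early genes, which neurons switch on with activity, had 22 of 22 above control in hippocampus and 21 of 22 in amygdala (medians 0.24 and 0.33). Egr1 differed by -0.22 ± 0.34. Control 2, which held Alb, had a score of 0.38 in hippocampus and 0.32 in amygdala, against NCoR1-KO scores of 0.16 to 0.34 and 0.04 to 0.40, so the groups overlapped. For heat shock and acute stress genes, 21 of 21 and 20 of 21 lay above control (medians 0.20 and 0.15), where control 2 had scores of 0.15 and 0.24 against 0.06 to 0.17 and 0.12 to 0.16 in NCoR1-KO, with Hspa8 at -0.11 ± 0.11 and Sgk1 at 0.28 ± 0.17. The signs of the median differences of these 3 lists turned without hippocampus control 2, to 0.05, 0.13 and 0.08. Inflammation and interferon genes lay below control in both tissues (medians -0.27 and -0.35). Their difference was above 0 in 16 of 19, and its median of 0.15 was 0.05 without amygdala control 1 and 0.31 without amygdala control 2, with Stat2 at 0.27 ± 0.11 and B2m at 0.30 ± 0.15. Oxidative phosphorylation genes had medians of 0.03 and 0.05.

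Genes of ion channels and synapses had medians near 0. Potassium channels had 21 of 46 above 0 (median -0.02), with Kcnt1 at -0.68 ± 0.22 and Kcnip1 at -0.26 ± 0.11. Sodium and calcium channels had 21 of 32 above 0 (median 0.03, and -0.01 with libraries centred on their median), with the T-type channel Cacna1g at -0.46 ± 0.25. Synaptic vesicle and SNARE genes had 18 of 42 above 0 (median -0.04), with the vesicle protein gene Sv2a at -0.21 ± 0.07. Glutamate receptor genes had 12 of 24 above 0 (median -0.01). The kainate receptor subunit Grik3 was at 18.9, 26.9, 17.9 and 21.4 TPM in hippocampus controls and 13.8, 16 and 13.1 TPM in NCoR1-KO, and at 35, 34, 34.4 and 38.6 TPM against 38.7, 39.7 and 42.8 TPM in amygdala. Its groups did not overlap in either tissue and lay in opposite order, with a difference of -0.71 ± 0.20. The metabotropic receptor Grm8 differed by -0.99 ± 0.32. Cadherin and protocadherin genes lay lower than these lists, with 8 of 33 above 0, against 59.1% of all genes. Their median was -0.09, and 0.02 without the 6 libraries that held Alb. The calsyntenin Clstn3 was at -0.26 ± 0.10, Cdh22 at -0.59 ± 0.23 and Cdh7 at -0.74 ± 0.34.

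Lists of GABA neurons, neuropeptides and neighbouring regions had the lowest differences. Neuropeptide precursors had 2 of 19 above 0 and a median of -0.48. In hippocampus 17 of 19 lay below control (median -0.42), and in amygdala 8 of 19 (median 0.06). Adcyap1, which encodes PACAP, differed by -1.15 ± 0.54, neurotensin (Nts) by -1.03 ± 0.55, prepronociceptin (Pnoc) by -0.57 ± 0.26 and corticotropin-releasing hormone (Crh) by -0.48 ± 0.26. Interneuron markers had 3 of 19 above 0 and a median of -0.39 (-0.34 in hippocampus, 0.01 in amygdala). Gad2, an enzyme that makes GABA, differed by -0.52 ± 0.21, the vesicular GABA transporter Slc32a1 by -0.59 ± 0.26, Sp9 by -0.91 ± 0.33 and Nxph1 by -0.32 ± 0.13. GABA system genes as a whole, most of them receptor subunits, had a median of -0.04 (8 of 20), with Gabra3 at -0.83 ± 0.31.

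Marker lists of neighbouring regions also had medians below 0, but they share genes with the lists above. Crh and Nts are both neuropeptide precursors and amygdala nuclei markers, and the median of both lists is the value of Crh. The lists are therefore not separate support for each other. Amygdala nuclei markers had 3 of 17 above 0 (median -0.48), with Meis2 at -0.50 ± 0.25, and striatum markers 5 of 16 (median -0.33), with Tac1 at -0.93 ± 0.56, Drd2 at -1.01 ± 0.70 and Penk at -1.05 ± 0.76. The summed level of the striatum markers was 225 to 603 TPM in hippocampus controls and 226 to 262 TPM in NCoR1-KO, and 510 to 1544 TPM and 720 to 1255 TPM in amygdala. For the amygdala nuclei markers the sums were 476 to 631 and 448 to 510 TPM in hippocampus and 746 to 1144 and 869 to 1033 TPM in amygdala. Thalamus markers had a median of -0.10 (6 of 12), which turned to 0.15 without hippocampus control 4, 0.04 without hippocampus NCoR1-KO 2 and 0.09 with a filter at 5 TPM, with Calb2 at -0.93 ± 0.63, and the 3 hypothalamus markers that were tested one of -0.36, with Hap1 at -1.06 ± 0.48. Among hippocampus libraries, control 2 had the highest scores for striatum and amygdala nuclei. Without it the medians were -0.32 for neuropeptides, -0.33 for amygdala nuclei, -0.18 for striatum and -0.34 for interneurons, and Tac1, Drd2 and Penk were at -0.45, -0.75 and -0.32. The striatum median also moved to -0.13 without amygdala control 2, -0.14 without amygdala NCoR1-KO 1, -0.75 without amygdala control 3, -0.62 without amygdala NCoR1-KO 2 and -0.0073 with a filter at a mean of 5 TPM in each tissue. The part that the border of the dissection plays in these values was not tested. In bulk tissue, fewer cells of a type and less RNA per cell cannot be told apart.

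Markers of the hippocampus itself had small differences. Dentate gyrus markers had 12 of 14 above 0 (median 0.15, and 0.04 without hippocampus control 2 and NCoR1-KO 3), with C1ql2 at 1.03 ± 0.52. CA field markers had 9 of 16 above 0 (median 0.01, and -0.02 with median centring), with Ptpn5 at -0.51 ± 0.18. Excitatory neuron markers had 9 of 12 above 0 (median 0.08), with Neurod1 at 0.44 ± 0.24. Cortex layer markers had 6 of 16 (median -0.06).

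Differences of glial and vascular genes lay mostly above 0. Their medians were below control in amygdala NCoR1-KO for each of these lists. Oligodendrocyte genes had 21 of 21 above 0, with a median of 0.36 (0.13 in hippocampus, -0.23 in amygdala). Ermn, a cytoskeletal protein of myelin, differed by 0.50 ± 0.47, Ugt8a, which makes the myelin lipid galactosylceramide, by 0.54 ± 0.56 and the precursor marker Pdgfra by 0.15 ± 0.14. The median was 0.12 without amygdala control 1 and 0.67 without amygdala control 2. The summed oligodendrocyte level was 3116 to 10393 TPM in amygdala controls and 4432 to 5932 TPM in NCoR1-KO, so the groups overlapped, as they did in hippocampus (11648 to 21361 and 14344 to 18071 TPM). Microglia genes had 16 of 16 above 0 (median 0.22), with the complement gene C1qb at 0.29 ± 0.15 and the chemokine receptor Cx3cr1 at 0.21 ± 0.12. Their sum was 846 to 1085 TPM in amygdala controls and 765 to 840 TPM in amygdala NCoR1-KO, which did not overlap, against 707 to 876 and 726 to 761 TPM in hippocampus, which did. Astrocyte genes had 15 of 17 above 0 (median 0.12, and 0.05 without amygdala control 1), with the water channel Aqp4 at 0.35 ± 0.28 and the glutamate transporter Slc1a2 at 0.22 ± 0.16.

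Among vessel genes, endothelial markers had 14 of 15 above 0 (median 0.23), with the tight junction protein Ocln at 0.58 ± 0.19 and the VEGF receptor Flt1 at 0.29 ± 0.13. The list of mural cell, fibroblast and meninges genes had 14 of 15 above 0 (median 0.37), with the pericyte gene Rgs5 at 0.37 ± 0.15. Col1a1, a chain of type I collagen, was at 7.08, 8.73, 5.06 and 8.34 TPM in hippocampus controls and 16.7, 12.8 and 14.4 TPM in NCoR1-KO, and at 15.2, 12.7, 11.9 and 15.1 TPM against 13.6, 11.2 and 13.5 TPM in amygdala. The groups were apart in hippocampus only and overlapped in amygdala, and the difference was 1.03 ± 0.50 with an interval from -0.02 to 2.07. The sum of the list was 332 to 359 TPM in hippocampus controls and 333 to 487 TPM in NCoR1-KO. Whether the meninges left on the tissue play a part was not tested.

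Erythrocyte genes had 5 of 5 above 0 and a median of 0.33, which was 0.13 without amygdala NCoR1-KO 1 and 0.14 without hippocampus control 2. Their summed level overlapped between the groups, at 1521 to 3115 TPM in hippocampus controls and 2201 to 2664 TPM in NCoR1-KO, and at 1754 to 3572 and 2035 to 2804 TPM in amygdala. The beta globin gene Hbb-b2, which has a near-identical copy and whose values are uncertain, was listed at 0 in all hippocampus controls. In hippocampus only knockout libraries brought it past the filter, and it is counted among the 5 above 0 (2.77 ± 1.22).

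Choroid plexus genes had the largest median difference of the 34 lists, 0.92, with 15 of 15 above 0. It rested on hippocampus NCoR1-KO 3, where the summed level reached 14329 TPM, and without that library the median was -0.16. Enpp2, Kl and Cldn1 of this list differed by 1.16 ± 1.04, 0.92 ± 0.86 and 1.02 ± 0.86.

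**Figure D5:**
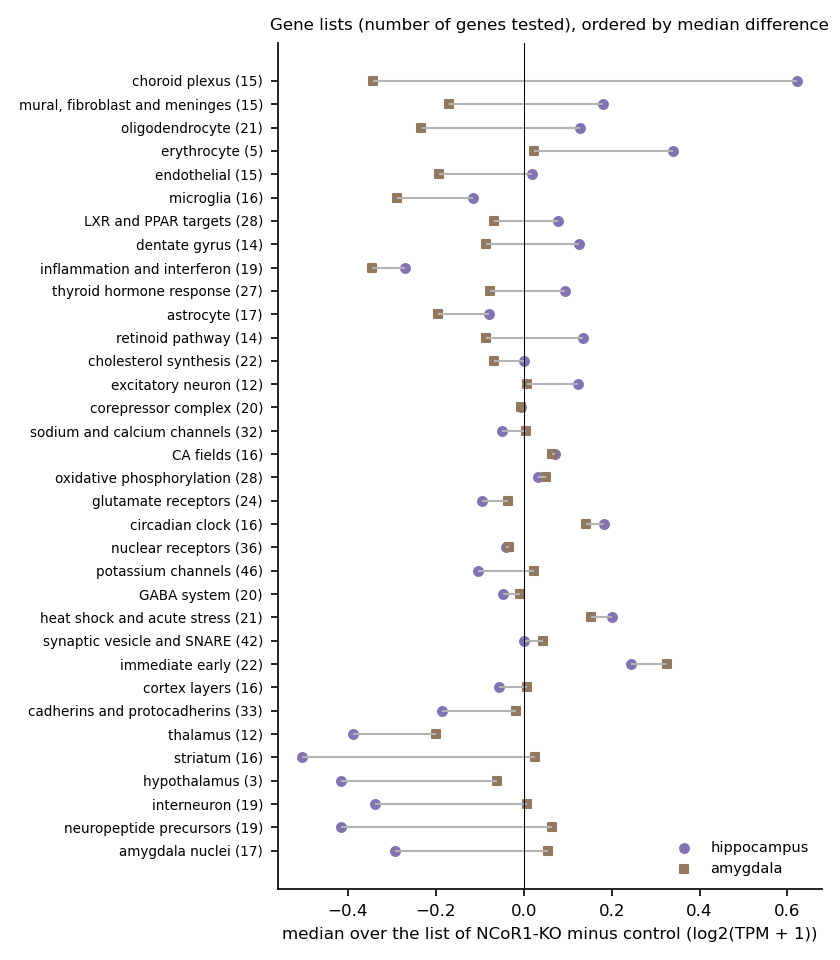
Median NCoR1-KO minus control in log2(TPM + 1) (horizontal axis) over the genes of each of the 34 lists, for hippocampus (circles) and amygdala (squares), with the number of genes tested in brackets and the lists ordered by their median difference. Choroid plexus (difference 0.92) is at the top, and neuropeptide precursors and amygdala nuclei (-0.48 each) are at the bottom. No gene of any list passed the test of the difference.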

How the data were processed

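Per the labels' protocols, RNA of each tissue was purified with the RNeasy Lipid Tissue kit and made into TruSeq stranded mRNA libraries. The authors deposited 1 table of gene-level TPM values per tissue. The submitters' processing notes name STAR 2.5.3a, RSEM 1.3.3, fastp 0.21.0, bcl2fastq and mm10, with neither roles nor order, and no gene annotation. Sequencing depth is unknown, because TPM does not retain it, so the counting error of a value could not be estimated. Genes at 1 TPM or more numbered 13787 to 14391 per hippocampus library and 14153 to 14509 per amygdala library.

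All 20 libraries were fitted on log2(TPM + 1) in 6 groups of tissue and genotype with limma 3.58.1 in R 4.3.3, using moderated variances with an expression trend. Standard errors and intervals are those of this fit, and differences on this scale understate the change of low genes. Calls within a tissue came from a fit of its 10 libraries. Benjamini-Hochberg adjustment ran over all genes tested, with a threshold of 0.05. Libraries were taken as unpaired. Ncor1 and Snap25 were also tested by exact permutation of genotype labels within tissues. For the difference between tissues, its null is no genotype effect in either tissue, not equal effects. The code was tested on simulated data.

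Named genes are Ncor1 and Snap25, the 10 of smallest unadjusted p per direction of the difference, up to 8 that passed in a tissue, up to 8 that were apart in both tissues in the same and in opposite directions, and up to 4 of smallest p per list. Predicted genes were counted only. Exceptions, chosen after their values were seen, are 8430408G22Rik, Alb, Apoa1, Necab1, Snap47, Ldb2, Acap2, Purb, Ccdc88a, Ptprt, Prox1 and Neurod6. The members, lists and tests were chosen with earlier results of these data known. Positions and transcript lengths are from GENCODE M21 (GRCm38), where 21737 of 23412 symbols matched directly and 1275 by an older symbol. Promoter windows are from RefSeq. The alternatives were other pseudocounts, filters, scalings and variance models, replicate blocks, libraries left out, and removal of a length and GC trend. The gene targeted in SMRT-KO and some genes that the rule selects are not reported here.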

Additional observations from a re-analysis of the deposited data

Results flagged for a closer look

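In each group of 4 controls, a library was singled out when its gap to the nearest other control exceeded 0.829 of the group's range. This was so in 18 of 294 groups, where chance gives about 1 in 20. Alb and Apoa1, which account for 4 of the 18, were added after their values were seen.

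In hippocampus, control 2 stood apart in Alb (log2(TPM + 1) 3.91, others up to 0.21), Apoa1 (2.71), and the scores of immediate early genes (0.38), dentate gyrus markers (-0.31) and amygdala nuclei markers (0.72). Control 4 stood apart in Klf3 (5.36, or 40.2 TPM), Snap47 (8.43) and Sc5d of cholesterol synthesis (6.75). In amygdala, control 2 stood apart in Alb (6.66), Apoa1 (4.86) and the scores of heat shock and acute stress genes (0.24) and oxidative phosphorylation genes (-0.0763). Control 1 was the low value of Ncor1 (6.18, or 71.3 TPM) and the high value of the choroid plexus score (1.00). Control 3 stood apart in Kcnip1 (5.22) and Meis2 (6.51), and control 4 in Hadhb (6.404) and Pnoc (2.62).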

How the results depend on the processing

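The count of genes whose effect differed between tissues was 0 under all alternatives but one. The exception took libraries of the same tissue and number across genotypes as a replicate block and called 1 gene, Necab1, a calcium-binding protein of neurons (difference -0.95, limma's adjusted p = 0.00315). The numbers share no stated animal or batch. Libraries of the same genotype and number in the 2 tissues deviated together (r over 0.1) in 8 of 10 pairs, r from 0.000814 to 0.48, and 8 of 10 correlated best with their own number, a hint from the data only. With that replicate block the count was 0 and the smallest adjusted p 0.607. Leaving out each library gave 0 to 0 genes, with smallest adjusted p from 0.11 to 1. The hippocampus count was 1 with the 14 control and NCoR1-KO libraries only and 1 with quantile normalization, and 0 to 1 with a library left out. The amygdala count was 4 with those 14 libraries, 38 with a pseudocount of 5, 16 without a filter, 17 without the variance trend, 22 with the length and GC trend removed, 0 without the 6 libraries that held Alb and 0 to 126 with a library left out. The hippocampus median of the 58 genes was -0.25 with the length and GC trend removed, -0.85 without those 6 libraries and -0.64 to -0.26 with a library left out. The Ncor1 difference ranged from 0.18 to 0.53 (exact permutation, p from 0.594 to 0.895, which does not test whether the effects are equal).

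Of 110 named genes, 98 kept the sign of their difference in every alternative that tested them, 33 for 93 genes and 32 for 17. Near 0, Aox4 turned to -0.20 with a pseudocount of 0.1, -0.091 with quantile normalization and -0.176 with the replicate block within tissues, Ptprt to 0.0349 with a pseudocount of 5, and Nfil3 to -0.0515 with quantile normalization and -0.029 with median centring. Without the 6 libraries that held Alb, Rora was at -0.0892, Mib1 at -0.35, Kcnq3 at -0.0781, Arntl at 0.0322, Nfil3 at -0.16 and Thrb at 0.0353. Leaving out a library gave Snap25 -0.0731 to 0.023, Rora -0.0976 to 0.321, Mib1 -0.0669 to 0.615, Kcnq3 -0.0297 to 0.599, Tcp11l1 -0.377 to 0.0863, Arntl -0.067 to 0.0109, Aox4 -0.23 to 0.39, Nfil3 -0.14 to 0.14, Ptprt -0.38 to 0.38, Alb -2.78 to 1.51 and Apoa1 -2.30 to 0.68. Of the 34 lists, 17 changed the sign of their median in some alternative. The cause of these changes was not tested. With 3 NCoR1-KO libraries per tissue and no depth in TPM, differences of low genes could not be bounded closely.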
